A study of Mus musculus with 26 samples.

Results

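The subunits of the GABA-A receptor were examined in the striatum of LRRK2 mouse models as a set of 7 genes, Gabra2, Gabra3, Gabra4, Gabra5, Gabrb1, Gabrb2 and Gabrd, chosen by gene symbol. Of these 7 genes, 6 had values in each of the 3 tables of the series, among 8576 transcripts in each of the transgenic tables and 9561 in the LRRK2 KO table, with 9574 gene symbols in any table. Gabrb1 had no value in any table, so its expression was not analysed here, and genes outside the set appear only as checks, markers, pathway genes and nearest transcripts.

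The GABA-A receptor is a ring of subunits around a chloride pore that opens when GABA binds between α and β subunits, and the α subunit sets much of the affinity, kinetics and drug response of the receptor. Receptors with a γ subunit gather at synapses and carry phasic inhibition, while receptors with a δ subunit lie outside synapses and carry tonic inhibition. In the striatum, the spiny projection neurons both release GABA and receive it, from interneurons and from each other.

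The study measured ribosome footprints, the mRNA fragments that ribosomes protect from nuclease, and RNA-Seq of the same lysates, and took the ratio of footprinting to RNA-Seq as translation efficiency (TE). GS LRRK2 TG mice carried a transgene for G2019S LRRK2, and GS/DA LRRK2 TG mice one for G2019S/D1994A LRRK2, described as kinase dead. Both were compared with non-TG control mice, and LRRK2 KO mice were compared with WT mice. Both transgenes were in high-copy Tet-off lines under a CaMKII-tTA driver, and doxycycline chow given to breeding cages was stopped after weaning to induce them. All mice were C57BL/6 and labelled 3 months old. Each lysate pooled the caudate putamen of 3 mice of mixed sex, so no library stands for a single mouse.

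The labels list 24 striatal libraries. There were 3 footprinting and 3 RNA-Seq libraries of non-TG control, 2 and 2 of GS LRRK2 TG, 2 and 2 of GS/DA LRRK2 TG, 3 and 2 of WT, and 3 and 2 of LRRK2 KO. The deposited tables hold 1 normalized mean per group and assay. In 10 of the 12 means, the value could be resolved into the whole reads of 2 libraries for 97.9% to 99.9% of transcripts. The library of a pair with fewer reads is called A and the one with more reads B, and these letters carry no replicate number. Which of the 3 labelled non-TG control libraries each transgenic table holds is not stated, and both tables draw on this group, so their controls may share libraries. The footprinting means of WT and LRRK2 KO each resolved into 2 libraries. The values used thus do not hold all 3 labelled footprinting libraries of either group. Depth in the CDS ran from 2776933 reads in LRRK2 KO footprinting library A to 15954039 reads in GS/DA LRRK2 TG footprinting library B. The 2 means of non-TG control in the GS LRRK2 TG table could not be resolved, so that comparison has no spread in its control.

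Lrrk2 itself checked the labels. Footprinting of Lrrk2 was 690 and 400 normalized reads in WT libraries A and B against 150 and 102 in LRRK2 KO, and RNA-Seq was 733 and 1278 in WT against 270 and 423 in LRRK2 KO. Both assays were lower in each LRRK2 KO library than in each WT library. In the GS/DA LRRK2 TG table, footprinting of Lrrk2 was 1224 and 1445 in non-TG control and 4766 and 7267 in GS/DA LRRK2 TG. In the GS LRRK2 TG table, it was 2524 as the authors' mean in non-TG control and 7052 and 3320 in GS LRRK2 TG. Footprints of Lrrk2 were thus higher in each transgenic library than in its control. RNA-Seq of Lrrk2 was not: it was 560 and 5233 in non-TG control against 5038 and 404 in GS/DA LRRK2 TG, and 2105 as a mean in non-TG control against 214 and 3550 in GS LRRK2 TG. The transgenic RNA-Seq libraries go by their labels alone.

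Markers of spiny projection neurons checked the tissue, with 10 of 12 listed symbols having values and Ppp1r1b, a phosphoprotein of these neurons, the most abundant in RNA-Seq. Of 3 markers of cerebellar granule neurons, 0 had a value. Of 3 markers of choroid plexus, Ttr alone had a value. Its RNA-Seq mean was 212 in WT and 104 in LRRK2 KO, a change of -1.03, with a TE difference of 1.14. Its footprinting mean was 84.5 in WT and 91.6 in LRRK2 KO, 3944 in non-TG control and 723 in GS LRRK2 TG, and, in the other transgenic table, 9125 in non-TG control against 3149 in GS/DA LRRK2 TG.

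Per kilobase of CDS, Gabrd had the highest footprinting level of the 6 subunits in both control groups. In non-TG control of the GS/DA LRRK2 TG table, the footprinting mean was 1979 normalized reads per kilobase for Gabrd, 1603 for Gabrb2, 1541 for Gabra2, 1073 for Gabra4, 244 for Gabra3 and 119 for Gabra5. The libraries of Gabrb2 (1519 to 1687) and Gabra2 (1391 to 1690) overlapped, and the other neighbours in this order were apart. In WT, the order was the same, at 395, 372, 298, 226, 81.6 and 44.3, with the libraries of Gabrd, Gabrb2, Gabra2 and Gabra4 overlapping from each to the next and those of Gabra4, Gabra3 and Gabra5 apart. The tables were normalized separately, so only the orders can be set side by side.

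RNA-Seq put the subunits in another order, Gabrd, Gabra4, Gabrb2, Gabra2, Gabra5 and Gabra3. In non-TG control, the means were 1945, 830, 389, 302, 213 and 199 normalized reads per kilobase, and only Gabrd lay apart from its neighbour. In WT they were 559, 420, 324, 312, 141 and 137, and only Gabra2 and Gabra5 were apart. In non-TG control, the log2 TE was 2.04 for Gabrb2, over RNA-Seq libraries as unlike as 136 and 1060, 2.35 for Gabra2, over libraries of 220 and 596, and -0.84 for Gabra5, over libraries of 301 and 290. In WT, the log2 TE was 0.20 for Gabrb2, -0.06 for Gabra2 and -1.67 for Gabra5.

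In the transgenic tables, the RNA-Seq libraries of a group stood 2.07-fold to 35.1-fold apart for 5 of the 6 subunits and up to 1.7-fold apart for Gabra5, and the difference followed the base composition of the CDS. Across transcripts, which are not independent replicates, the log2 ratio of library A to library B had a Spearman correlation with CDS GC content of 0.79 in GS LRRK2 TG (8196 transcripts), 0.78 in non-TG control (8179) and -0.80 in GS/DA LRRK2 TG (8226). In the LRRK2 KO table, it was 0.04 in WT (9265) and 0.27 in LRRK2 KO (9243). In footprinting, the correlation was -0.54 in WT, -0.23 in LRRK2 KO, 0.47 in GS/DA LRRK2 TG, 0.43 in its non-TG control and -0.31 in GS LRRK2 TG. The CDS GC content was 43% for Gabra2, 45.2% for Gabra3, 45.5% for Gabra4, 46% for Gabrb2, 48.2% for Gabra5 and 56% for Gabrd. In GS LRRK2 TG RNA-Seq, library A was below library B for the 5 subunits of lower GC content and above it for Gabrd. Footprinting libraries of these groups were within 1.38-fold of each other for each of the 6 subunits.

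**Figure D1:**
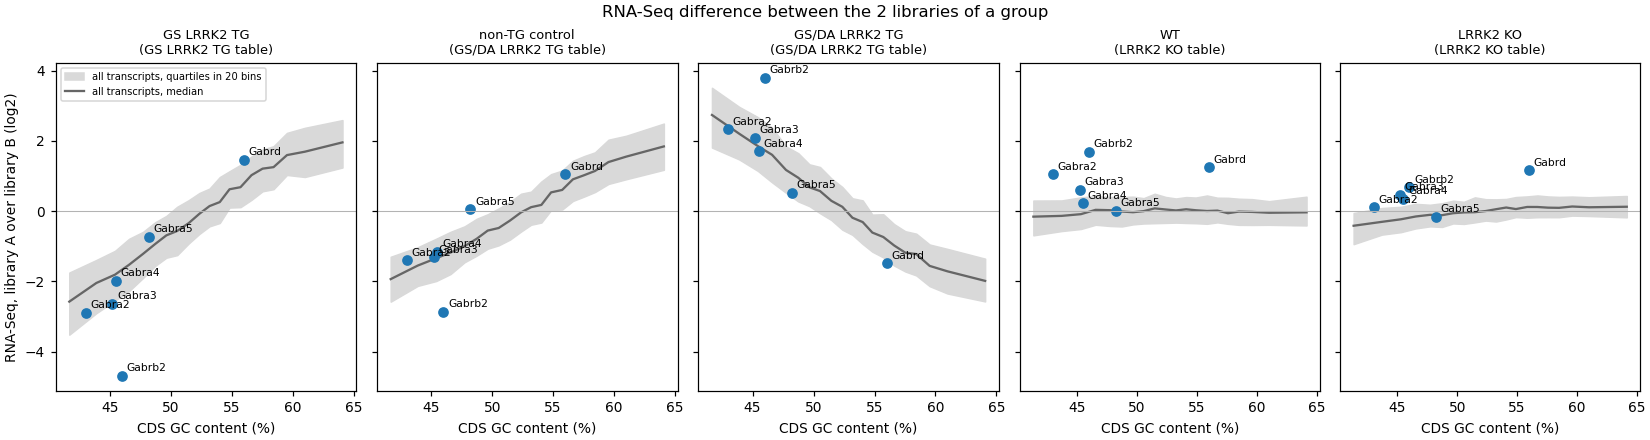
RNA-Seq difference between the 2 libraries of a group (y axis, log2 ratio of A to B with a pseudocount of 10) against CDS GC content in percent (x axis), with the median line and quartile band of all transcripts in 20 bins and points for the 6 subunits. Gabrb2 lies outside the band in all 5 groups, and in the transgenic tables Gabrd, at 56% GC, lies on the other side of 0 from Gabra2, at 43%.

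The coding sequence around the pore is shown at a place where the proteins of the subunits are alike. The longest run of codons with the same translation in all 7 genes was 8 codons, and it lies in the second transmembrane helix, which lines the pore. Below are 63 bases of CDS, 21 codons, that hold this run in the subunit with the lowest GC content (Gabra2) and the one with the largest RNA-Seq difference between libraries (Gabrb2), 5′ to 3′ on the coding strand, with G or C at the end of a codon in capitals. In mm9 (NCBIM37), they lie within 1 exon at chr5:71364802-71364864 (minus strand) for Gabra2 and chr11:42411045-42411107 (plus strand) for Gabrb2.
Gabra2: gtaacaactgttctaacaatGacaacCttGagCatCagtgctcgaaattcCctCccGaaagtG
Gabrb2: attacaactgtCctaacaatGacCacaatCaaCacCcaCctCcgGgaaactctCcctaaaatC
Of the 21 codons, 9 end in G or C in Gabra2 and 11 in Gabrb2, and both stretches have 44.4% GC. Over the whole CDS, G or C ends 45.6% of codons in Gabra2, 53.8% in Gabrb2 and 70.9% in Gabrd.

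Gabra2 (chr5:71352296-71487088, minus strand) encodes the α2 subunit, which is common at synapses of spiny projection neurons. RNA-Seq of Gabra2 was 573 and 271 normalized reads in WT libraries A and B, and 306 and 283 in LRRK2 KO libraries A and B. WT library A stood above the other 3 libraries, and both LRRK2 KO libraries lay within the WT range. Footprinting was 292 and 516 in WT and, in LRRK2 KO, 659 in library B and 2.58-fold less in library A, which held 183 reads. Library B was the higher one in both groups, and the groups overlapped. Between group means, the RNA-Seq change was -0.52, the footprinting change 0.18 and the TE difference 0.70 on the log2 scale, with a z of 2.49 against all transcripts. Without WT RNA-Seq library A, the RNA-Seq change was 0.12 and the TE difference 0.06. The TE difference was -0.14 without LRRK2 KO footprinting library B and 0.35 without WT footprinting library A. Without LRRK2 KO RNA-Seq library B, z was 1.35, while the TE difference by limma was 0.44, against 0.49 with every library. Without LRRK2 KO footprinting library A the TE difference was 1.23, and without WT RNA-Seq library B the RNA-Seq change was -0.96. After subtracting the median of transcripts of like GC content, the RNA-Seq change was -0.49, short of 0.5 in size. In these bulk samples, fewer cells of a type and less RNA per cell cannot be told apart.

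In the transgenic tables, footprinting of Gabra2 was 2287 and 1882 in non-TG control against 1878 and 2079 in GS/DA LRRK2 TG, and RNA-Seq was 220 and 596 against 582 and 107. The groups overlapped in both assays, and RNA-Seq differed more within a group than between groups. The GS LRRK2 TG libraries had footprinting of 1875 and 1892 against a control mean of 1641, and RNA-Seq of 78.4 and 649 against a control mean of 307. The control mean of RNA-Seq lay between the 2 libraries. The TE difference was 0.17 (z 1.41) for GS/DA LRRK2 TG and -0.04 (z -0.44) for GS LRRK2 TG, comparisons that both use non-TG control. These values moved with base composition: set against transcripts of like GC content, the TE difference was 0.47 (z 2.97) and -0.28 (z -1.53). Without GS LRRK2 TG RNA-Seq library A the TE difference was -0.88 and without library B it was 2.17, while for GS/DA LRRK2 TG it was -0.72 without non-TG control RNA-Seq library B, 1.85 (z 1.70) without GS/DA LRRK2 TG RNA-Seq library A and 0.32 (z 1.66) without non-TG control footprinting library A.

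Gabra3 (chrX:69678020-69902187, minus strand) encodes the α3 subunit, found widely in cortex and in striatal interneurons. Footprinting of Gabra3 was 328 and 454 normalized reads in non-TG control libraries A and B, and 450 and 563 in GS/DA LRRK2 TG libraries A and B. RNA-Seq was 179 and 459 in non-TG control and 707 and 159 in GS/DA LRRK2 TG. The footprinting groups overlapped by a narrow margin and the RNA-Seq groups overlapped widely. Between group means, the footprinting change was 0.37, at the 99 percentile of all transcripts, the RNA-Seq change 0.44, at the 96.2 percentile, and the TE difference -0.07. The footprinting change was 0.63 without non-TG control footprinting library B, 0.53 without GS/DA LRRK2 TG footprinting library A and 0.16 without non-TG control footprinting library A. The RNA-Seq change was -1.01 without GS/DA LRRK2 TG RNA-Seq library A and 1.28 without non-TG control RNA-Seq library B. With limma, the footprinting change had an SE of 0.775 with the spread of both assays pooled and 0.198 with footprinting fitted alone, with an adjusted p of 1 in each.

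Markers of cortical projection neurons were higher in GS/DA LRRK2 TG than in non-TG control, a comparison in which Gabra3 passed no threshold. Of 6 listed markers, 3 had values in the transgenic tables, with Slc17a7 the most abundant, and Neurod2 and Fezf2 were among those not analysed there. Their summed footprinting mean was 1343 in non-TG control and 3339 in GS/DA LRRK2 TG, a change of 1.31 on the log2 scale. Their summed RNA-Seq mean was 1440 and 3219, a change of 1.16. In GS LRRK2 TG, the changes of the sums were -0.24 and -0.79. Markers of spiny projection neurons, 10 of 12, had summed footprinting of 142436 in non-TG control and 115106 in GS/DA LRRK2 TG, a change of -0.31. Their part in the values of Gabra3 was not tested.

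In the other comparisons too, Gabra3 passed no threshold between group means. The footprinting change was 0.22 (95.3 percentile) in GS LRRK2 TG, and the RNA-Seq change was -0.26 (12.5 percentile) in LRRK2 KO. Footprinting in GS LRRK2 TG was 456 and 342 against a control mean of 343, and RNA-Seq 77 and 529 against 292. The control means lay at or between the 2 libraries, and the TE difference was 0.16 (z 0.52), with 2.14 (z 1.58) without GS LRRK2 TG RNA-Seq library B and -0.64 without library A. In the LRRK2 KO table, footprinting was 105 and 156 in WT and 72.7 and 186 in LRRK2 KO, and RNA-Seq was 266 and 172 in WT and 213 and 152 in LRRK2 KO. The groups overlapped in both assays, and the TE difference was 0.25 (z 0.83). It was 0.77 (z 1.68) without LRRK2 KO footprinting library A and -0.58 without library B.

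Gabra4 (chr5:71960973-72049547, minus strand) encodes the α4 subunit, a partner of the δ subunit in receptors outside synapses. In the LRRK2 KO table, footprinting of Gabra4 was 330 and 420 in WT and 322 and 499 in LRRK2 KO, and RNA-Seq was 753 and 641 in WT and 908 and 712 in LRRK2 KO. The groups overlapped in both assays, and the TE difference was -0.09 (z -0.40). In the GS/DA LRRK2 TG table, footprinting was 1846 and 1717 in non-TG control and 1559 and 1658 in GS/DA LRRK2 TG, and RNA-Seq was 852 and 1905 against 2288 and 697. Both footprinting libraries of GS/DA LRRK2 TG lay below both of non-TG control, by a change of -0.15 between means, while RNA-Seq overlapped. The GS LRRK2 TG libraries had footprinting of 1339 and 1457 against a control mean of 1351, and RNA-Seq of 402 and 1618 against 1154. These libraries enclosed their control means. The TE difference was -0.26 (z -1.08) for GS/DA LRRK2 TG and, also against non-TG control, 0.24 (z 0.88) for GS LRRK2 TG. It was 0.83 without GS/DA LRRK2 TG RNA-Seq library A and -0.96 without non-TG control RNA-Seq library B, and for GS LRRK2 TG it was 1.57 without RNA-Seq library B and -0.44 without library A. In LRRK2 KO, the TE difference of Gabra4 was 0.19 without LRRK2 KO footprinting library A and -0.44 without library B.

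Gabra5 (chr7:64663060-64765379, minus strand) encodes the α5 subunit, which is known for tonic inhibition in hippocampus and occurs in few striatal cells. It had the lowest footprinting level of the set. Footprinting of Gabra5 was 54.6 and 68.5 in WT and 78.3 and 67.1 in LRRK2 KO, and RNA-Seq was 197 and 194 in WT and 176 and 199 in LRRK2 KO. These rested on 41 to 98 reads in footprinting. In the GS/DA LRRK2 TG table, footprinting was 174 and 156 in non-TG control and 184 and 171 in GS/DA LRRK2 TG, and RNA-Seq was 301 and 290 against 356 and 245. The groups overlapped in each of these. Its GS LRRK2 TG libraries had footprinting of 161 and 134 around a control mean of 144, and RNA-Seq of 189 and 321 around 254. The TE difference of Gabra5 was 0.30 (z 1.03) for LRRK2 KO, and it was between 0.15 without WT footprinting library A and 0.47 without WT footprinting library B. In the transgenic tables, it was 0.08 (z 0.89) for GS/DA LRRK2 TG, with -0.16 without GS/DA LRRK2 TG RNA-Seq library B and 0.37 without library A. Also against non-TG control, it was 0.03 (z -0.10) for GS LRRK2 TG, with -0.30 without GS LRRK2 TG RNA-Seq library A and 0.46 without library B.

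Gabrb2 (chr11:42233259-42446092, plus strand) encodes the β2 subunit, which forms the GABA site with an α subunit. RNA-Seq of Gabrb2 was 764 and 230 normalized reads in WT libraries A and B, from 396 and 308 reads, and 349 and 215 in LRRK2 KO libraries A and B, from 264 and 413 reads. WT library A stood above the other 3, and the groups overlapped. Between the A libraries, the log2 difference of LRRK2 KO from WT was -1.13, and between the B libraries it was -0.10. Footprinting was 421 and 722 in WT and 393 and 822 in LRRK2 KO, with library B the higher one in both groups. Between group means, the RNA-Seq change was -0.82, at the 0.377 percentile of all transcripts, the footprinting change 0.09 and the TE difference 0.91, with a z of 3.25. Without WT RNA-Seq library A, the RNA-Seq change was 0.29 and the TE difference -0.21. The z was 1.25 without WT footprinting library A, 0.76 without LRRK2 KO footprinting library B and 1.24 without LRRK2 KO RNA-Seq library B. Each z was scaled by the SD over all transcripts with that library left out. By limma, a separate measure, the TE difference was 0.26, 0.12 and 0.31 without these libraries in turn, against 0.65 with every library. Without WT RNA-Seq library B, the RNA-Seq change was -1.44 and the TE difference 1.53. Against transcripts of like GC content, the TE difference was 0.79 (z 3.01).

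The RNA-Seq libraries of the transgenic tables differed most in Gabrb2 among the 6 subunits. In GS LRRK2 TG, RNA-Seq of Gabrb2 was 26.6 in library A, from 19 reads, and 933 in library B, from 1264 reads, a 35.1-fold difference around a control mean of 461. Footprinting in the same group was 2162 and 1810 around a control mean of 1907. In the GS/DA LRRK2 TG table, RNA-Seq was 136 and 1060 in non-TG control and 1169 and 74.8 in GS/DA LRRK2 TG, while footprinting was 2334 and 2591 against 2509 and 2496. The low and the high library occurred in both genotypes, and the group means of RNA-Seq lay within 0.06 of each other on the log2 scale in both comparisons. The TE difference was -0.03 (z 0.25) for GS/DA LRRK2 TG and -0.00 (z -0.24) for GS LRRK2 TG. For the latter it was 4.17 without RNA-Seq library B and -0.96 without library A, and for the former it was -2.17 without non-TG control RNA-Seq library B and 3.02 without GS/DA LRRK2 TG RNA-Seq library A.

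Gabrd (chr4:154759089-154772221, minus strand) encodes the δ subunit of receptors outside synapses. In the LRRK2 KO table, footprinting of Gabrd was 221 and 843 in WT libraries A and B and 232 and 913 in LRRK2 KO libraries A and B, and RNA-Seq was 1063 and 443 in WT and 1095 and 483 in LRRK2 KO. The libraries of a group differed up to 3.93-fold, and the 2 genotypes had like pairs of values. The TE difference was 0.04 (z 0.07). It was -0.73 (z -2.07) without WT RNA-Seq library A, -1.26 (z -2.26) without LRRK2 KO footprinting library B, 1.31 (z 2.42) without WT footprinting library B, 0.71 (z 1.54) without LRRK2 KO footprinting library A and 0.75 (z 1.61) without LRRK2 KO RNA-Seq library A. In the GS/DA LRRK2 TG table, footprinting was 2902 and 2428 in non-TG control and 2786 and 2036 in GS/DA LRRK2 TG, and RNA-Seq was 3531 and 1708 against 1244 and 3498. The GS LRRK2 TG libraries had footprinting of 1720 and 2069 against a control mean of 2053, and RNA-Seq of 3615 and 1300 against 2439. The groups overlapped or enclosed the control mean, and the TE difference was -0.00 (z 0.43) for GS/DA LRRK2 TG and -0.13 (z -0.82) for GS LRRK2 TG. For the former it was 0.93 without GS/DA LRRK2 TG RNA-Seq library B and -0.62 without non-TG control RNA-Seq library A, and for the latter 0.79 without RNA-Seq library A and -0.68 without library B.

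**Figure D2:**
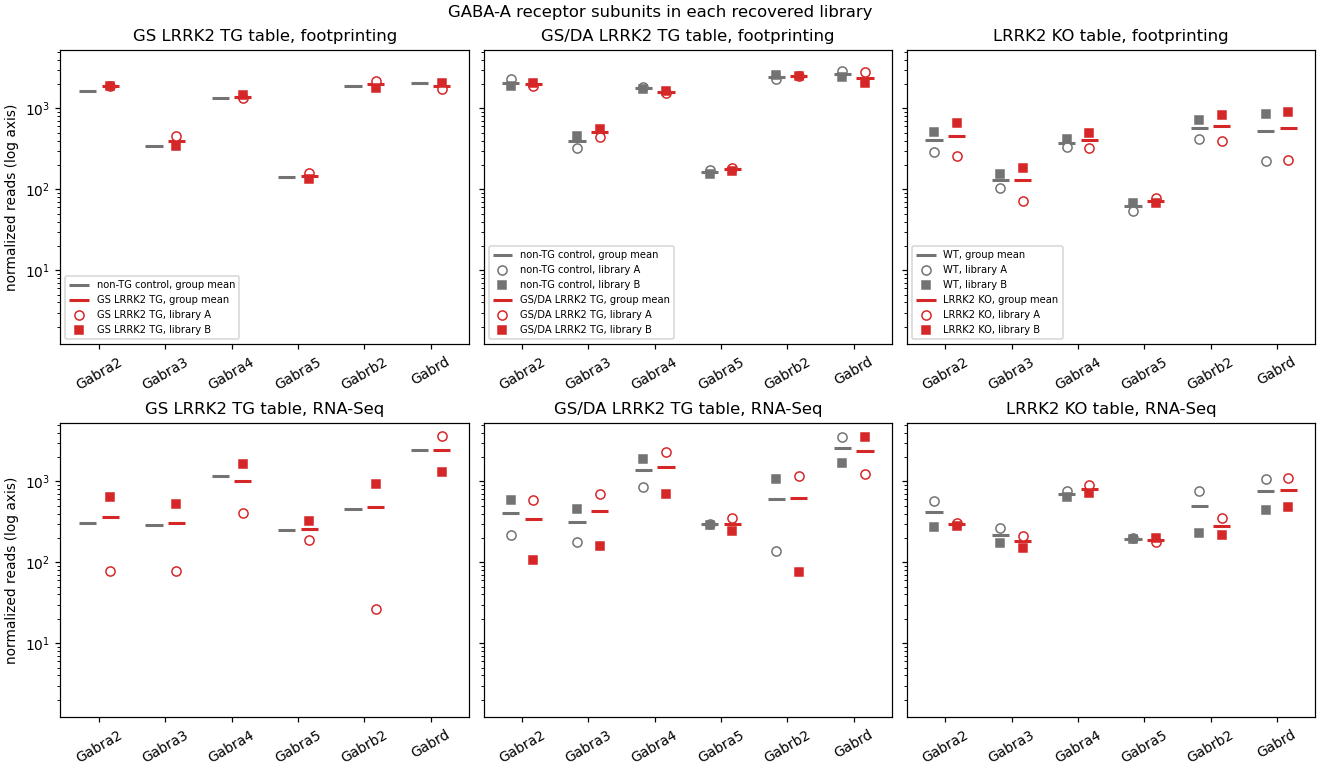
Normalized reads of the 6 subunits in each recovered library, on a log axis, for footprinting (top) and RNA-Seq (bottom) in the 3 tables, with bars for group means, open circles for library A and squares for library B. Non-TG control in the GS LRRK2 TG table is shown as a mean only. RNA-Seq of Gabrb2 spans 26.6 to 933 in GS LRRK2 TG, and WT library A, at 764, is the high RNA-Seq library of Gabrb2 in the LRRK2 KO table.

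For LRRK2 KO, the subunits past the thresholds were thus Gabra2 and Gabrb2, with higher TE and lower RNA-Seq between group means. TE passed a z of 1.5 in 2 of 6 subunits, against 6.23% of all transcripts, and passed -1.5 in 0 of 6, against 6.02%. RNA-Seq changed by more than 0.5 on the log2 scale downward in 2 of 6, against 2.51%, and upward in 0 of 6, against 0.669%. Footprinting passed 0.5 in 0 of 6 subunits upward, against 1% of all transcripts, and in 0 of 6 downward, against 1.07%. The median TE difference of the 6 subunits was 0.27 and that of all transcripts 0.02, while the median RNA-Seq change was -0.16 against 0.01. TE passed in 0 of 6 subunits upward without WT footprinting library A (5.63% of all transcripts), WT RNA-Seq library A (4.83%), LRRK2 KO footprinting library B (2.42%) or LRRK2 KO RNA-Seq library B (5.99%). It passed in 3 of 6 without WT footprinting library B (8.82%) or LRRK2 KO RNA-Seq library A (6.48%), and in 4 of 6 without LRRK2 KO footprinting library A (7.74%). Downward RNA-Seq changes passed in 0 of 6 without WT RNA-Seq library A (2.48% of all), in 1 of 6 without LRRK2 KO RNA-Seq library B (10.1%) and in 4 of 6 without LRRK2 KO RNA-Seq library A (11%). RNA-Seq changes passed upward in 1 of 6, Gabrd, without WT RNA-Seq library A (0.83, with 6.43% of all) or LRRK2 KO RNA-Seq library B (0.54, with 6.25%). Footprinting changes passed upward in 3 of 6 without WT footprinting library B (16.8% of all) and in 4 of 6 without LRRK2 KO footprinting library A (12.4%), and downward in 1 of 6 without WT footprinting library A (9.93%) and in 4 of 6 without LRRK2 KO footprinting library B (17.4%).

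Some cell-type markers moved the same way in LRRK2 KO, and others did not. Among markers of cortical projection neurons, the RNA-Seq change was -0.80 for Tbr1, -0.38 for Fezf2, -0.29 for Neurod2, -0.19 for Neurod6 and -0.19 for Slc17a7, and the TE difference was 0.87, 0.53, 0.28, 0.31 and -0.06. For Ttr of choroid plexus, they were -1.03 and 1.14. Footprinting of the cortical markers had a median change of 0.04. Markers of spiny projection neurons went both ways in RNA-Seq, with a median of 0.02. The change was -0.30 for Pdyn, -0.26 for Penk and -0.25 for Tac1, against 0.49 for Drd2, 0.25 for Adora2a and 0.21 for Ppp1r1b. The median RNA-Seq change was -0.16 for astrocyte markers and 0.19 for microglia markers. The part of these markers in the result for Gabra2 and Gabrb2 was not tested.

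Without a match between libraries, limma called no transcript in LRRK2 KO, and even Lrrk2 had an adjusted p of 1 in footprinting and RNA-Seq. With libraries matched by the difference both groups share, Lrrk2 had an adjusted p of 1.35e-06 in footprinting and 0.000181 in RNA-Seq, and no subunit was called. At an unadjusted p under 0.05, this matched limma fit counted 1 of 6 subunits, Gabrb2, in RNA-Seq and in TE. Without the match, limma was fitted over 9517 transcripts with Benjamini-Hochberg adjustment. Here 0 of 6 subunits and 0% of all transcripts had an adjusted p under 0.05 for footprinting, RNA-Seq or TE. At an unadjusted p under 0.05, limma counted 17 transcripts for footprinting, 9 for RNA-Seq and 4 for TE, and 0 of 6 subunits. The limma TE difference was 0.65 with an SE of 0.887 for Gabrb2 and 0.49 with an SE of 0.762 for Gabra2, each with an adjusted p of 1.

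**Figure D3:**
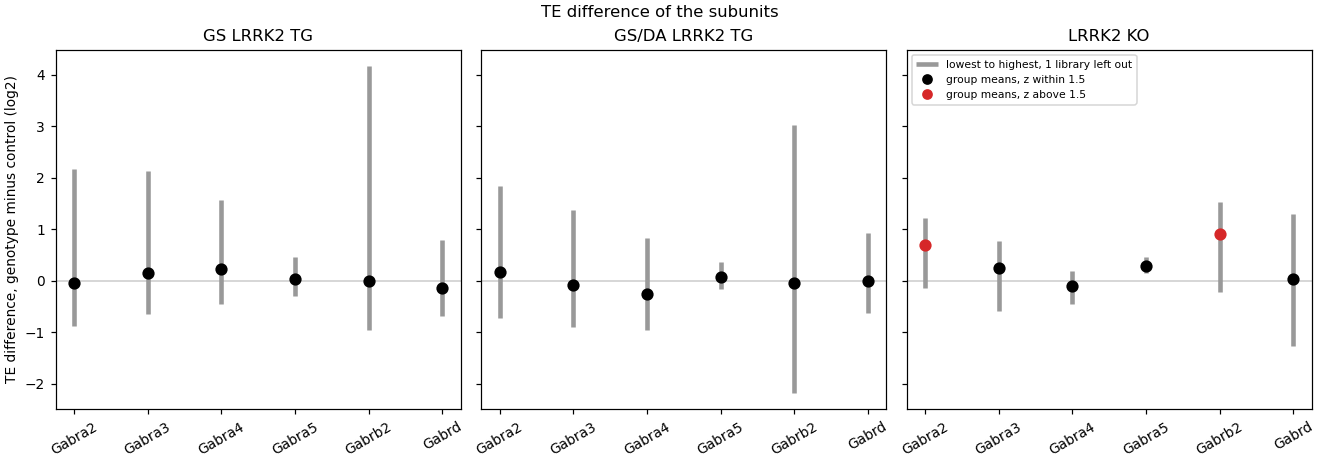
TE difference of the 6 subunits, genotype minus control on the log2 scale, in the 3 comparisons. Points are from group means, in red where z passed 1.5, and grey bars run from the lowest to the highest value with 1 recovered library left out. Gabra2, at 0.70, and Gabrb2, at 0.91, are the red points in LRRK2 KO, and their bars reach below 0.

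For GS LRRK2 TG, no subunit passed a threshold between group means. TE passed a z of 1.5 in 0 of 6 subunits, against 8.01% of all transcripts, and passed -1.5 in 0 of 6, against 3.91%. Footprinting passed 0.5 upward in 0 of 6, against 0.14%, and downward in 0 of 6, against 0.198%, while RNA-Seq passed upward in 0 of 6, against 0.233%, and downward in 0 of 6, against 2.72%. The median TE difference was 0.01 for the 6 subunits and 0.02 for all transcripts. These counts rest on the mean of unlike RNA-Seq libraries. Without GS LRRK2 TG RNA-Seq library B, TE passed upward in 3 of 6 (Gabra2, Gabra3 and Gabrb2), against 9.24% of all transcripts, and RNA-Seq passed downward in 4 of 6, against 34.3%, and upward in 1 of 6 (Gabrd), against 22.3%. Without GS LRRK2 TG RNA-Seq library A, RNA-Seq passed upward in 3 of 6, against 17.5%, and downward in 1 of 6, against 30.1%. With no control libraries, this comparison has no test.

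For GS/DA LRRK2 TG, which like GS LRRK2 TG is compared with non-TG control, no subunit passed a threshold either. TE passed a z of 1.5 in 0 of 6 subunits, against 3.65% of all transcripts, and passed -1.5 in 0 of 6, against 7.36%. Footprinting passed 0.5 upward in 0 of 6, against 0.49%, and downward in 0 of 6, against 0.326%, while RNA-Seq passed upward in 0 of 6, against 2.46%, and downward in 0 of 6, against 0.257%. The median TE difference was -0.02 for the subunits and -0.05 for all transcripts. With limma over 8325 transcripts, 0 of 6 subunits and 0% of transcripts had an adjusted p under 0.05 for footprinting, RNA-Seq or TE. Even Lrrk2, with a footprinting change of 2.14 and an SE of 1.44, was not called, so the lack of calls says little about the subunits. At an unadjusted p under 0.05, limma counted 3 transcripts for footprinting, 2 for RNA-Seq and 0 for TE, with 0 of 6 subunits. This fit pools the spread of both assays. With footprinting fitted alone by limma, 0 transcripts were called, and Lrrk2 had an adjusted p of 0.813. In the limma fit with libraries matched by the difference both groups share, Lrrk2 had an adjusted p of 0.098 in footprinting. Without non-TG control RNA-Seq library B, RNA-Seq passed upward in 4 of 6 subunits (29.2% of all) and downward in 1 (14.2%), and TE passed downward in 1 (9.01%). Without GS/DA LRRK2 TG RNA-Seq library A, RNA-Seq passed downward in 4 of 6 (31.8%) and TE upward in 2 (8.17%). Without GS/DA LRRK2 TG RNA-Seq library B, RNA-Seq passed upward in 4 of 6 (26.4%) and downward in 1 (28.8%). Without non-TG control RNA-Seq library A, RNA-Seq passed downward in 2 of 6 (12.2%), and without non-TG control footprinting library A, TE passed upward in 1 (Gabra2, 3.55%). Footprinting passed upward in 1 (Gabra3) without non-TG control footprinting library B (1.61%) or GS/DA LRRK2 TG footprinting library A (1.4%).

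Other genes of GABA signaling were taken from a list of 34 symbols, 32 of which had values in each table. Footprinting and RNA-Seq changes passed 0.5 in 0 of 32 in either direction in each comparison. The shares of all transcripts were 0.14% to 1.07% for footprinting and 0.233% to 2.72% for RNA-Seq. In GS LRRK2 TG, TE passed upward in 0 of 32, against 8.01% of all transcripts, and downward in 0, against 3.91%. In GS/DA LRRK2 TG, TE passed upward in 0, against 3.65%, and downward in 1, against 7.36%, Slc12a2, a chloride importer (-0.35, z -1.56). In LRRK2 KO, TE passed upward in 1, Dag1, which encodes dystroglycan (0.45, z 1.59), and downward in 1, Iqsec3, a protein of inhibitory synapses (-0.40, z -1.55), against 6.23% and 6.02% of all transcripts. The median TE difference of the list was 0.06 in GS LRRK2 TG, -0.06 in GS/DA LRRK2 TG and 0.08 in LRRK2 KO, against 0.02, -0.05 and 0.02 for all transcripts.

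In LRRK2 KO, RNA-Seq of the GABA-synthesizing enzymes was 4231 in WT and 3626 in LRRK2 KO for Gad1 (-0.22) and 1972 and 1595 for Gad2 (-0.31), with TE differences of 0.29 and 0.36. The vesicular transporter Slc32a1 had a TE difference of 0.13. For removal of GABA, the TE difference was 0.08 for the transporter Slc6a11, 0.25 for the transaminase Abat and 0.15 for the dehydrogenase Aldh5a1. The metabotropic GABA-B receptor subunits had -0.28 for Gabbr1 and -0.02 for Gabbr2. For Gphn, the scaffold of inhibitory synapses, it was 0.08, and for the chloride transporters it was 0.17 for Slc12a5 and 0.15 for Slc12a2. No gene in this paragraph passed a threshold.

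In the transgenic tables, the same genes were compared with non-TG control, and the values that follow are GS LRRK2 TG first. The TE difference was 0.10 and -0.06 for Gad1, 0.02 and -0.17 for Gad2, and -0.06 and -0.09 for Slc32a1. It was -0.06 and -0.28 for Slc6a11, 0.05 and -0.01 for Abat, and 0.07 and -0.01 for Aldh5a1. The receptor and scaffold genes had 0.19 and -0.06 for Gabbr2, -0.13 and 0.01 for Gabbr1, and 0.08 and -0.07 for Gphn. The chloride exporter Slc12a5 had -0.04 and -0.05, and Slc12a2 had 0.24 beside the -0.35 given above.

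Folding energy of the 5′UTR, deposited beside TE, was not tested for the subunits as a group. In the tables it was -242 kcal/mol for Gabra4, -192 for Gabra2, -172 for Gabrb2, -167 for Gabra5, -79.98 for Gabra3 and -46 for Gabrd. The 6 subunits ran from the 14.3 percentile (Gabra4) to the 71.3 percentile (Gabrd) of all transcripts in the LRRK2 KO table. Gabra2 and Gabrb2, with the higher TE differences in LRRK2 KO, lay at the 21.9 and 25.3 percentile, close to Gabra5, at the 26.2 percentile, whose TE difference there was 0.30.

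By Euclidean distance over the 6 log2 changes, footprinting and RNA-Seq in the 3 comparisons, among 1673 transcripts at 500 or more in each group mean, the nearest transcripts were found for each subunit. They included Cltc (0.19) and Gapdh (0.22) for Gabrb2, Dnm3 (0.30) and Nhp2l1 (0.32) for Gabra2, and Rasgrp2 (0.07) and Sec14l1 (0.12) for Gabrd. For the other α subunits, they included Wdr6 (0.23) and Rab3b (0.23) for Gabra3, Cyld (0.13) for Gabra4, and Tecr (0.12) and Zfp207 (0.12) for Gabra5. Cltc and Gapdh had RNA-Seq changes of -0.73 and -0.76 in LRRK2 KO, beside -0.82 for Gabrb2. This change is among the 6 that set the distance, so the closeness of these values follows from how the transcripts were picked.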

How the data were processed

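The authors aligned reads to mm9 with TopHat2 2.0.11 and Bowtie2 2.2.2, counted those that fell in coding sequence, isoforms merged, discarded transcripts with few reads and normalized with DESeq 1.20. The values used are the deposited group means of normalized reads, a signal with no SD. The authors also deposited log2 TE, used only as an alternative, and the 5′UTR folding energy in kcal/mol, the lowest over the isoforms of a gene. Columns with the authors' TE differences and z scores hold their own comparisons and were not used. Tables were normalized separately, so each comparison was made within 1 table.

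TE here is log2 of the footprinting mean over the RNA-Seq mean with a pseudocount of 0, and z is scaled by the mean and SD of the whole table, with cutoffs of 1.5 and -1.5. With a library left out, the mean and SD were taken anew, so z moves with that SD as well as with the TE difference. A log2 change was called past 0.5. A mean of 2 libraries, each divided by its size factor, is a sum of whole multiples of 2 steps, which were found from differences that recur between transcripts. Where several pairs of steps resolved over 95% of transcripts, the pair whose libraries had a median log2 ratio nearest 0 was taken. The closest competitor was in WT footprinting, where the pair taken had a median of 0.015 in size and the next 0.245. The recovered reads of a library give its depth, and a value is no more precise than its reads allow. Recovery and limma were tested on simulated data, with no result of these tests reported here.

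limma 3.58.1 (R 4.3.3) was fitted to log2(normalized reads + 10) of the recovered libraries of the LRRK2 KO and GS/DA LRRK2 TG tables, with genotype, assay and their interaction (TE), adjusted over all transcripts, with 1 residual spread for both assays. Its p-values measure the spread between libraries, each from a pool of mice. In the GS/DA LRRK2 TG table, this spread includes the RNA-Seq difference between libraries that followed CDS GC content. There, the SD of the log2 ratio of A to B was 1.44 in non-TG control and 1.69 in GS/DA LRRK2 TG for RNA-Seq. For footprinting, it was 0.31 and 0.32. The fold changes of limma are understated for low genes. CDS length, GC content and positions came from the mm9 (NCBIM37) annotation, matched for 97.1% of transcripts in the transgenic tables and 97% in the LRRK2 KO table. Python 3.11.15, numpy 2.4.6 and pandas 2.3.3 were used. Named genes are the 7 members, the GABA pathway genes past a threshold, those of synthesis, packaging, uptake, GABA-B receptor, Gphn and chloride transport, and the 2 nearest transcripts to each subunit. The members and lists were chosen with earlier results of these data known. Alternatives tried were other pseudocounts, cutoffs and thresholds, z from the median and MAD, a minimum on group means, centring on the median, subtraction of the median of 20 bins of CDS GC content, a limma intensity trend, the longest isoform for CDS length, and each recovered library left out. Some items withheld for evaluation are not reported here. Ventral midbrain libraries were not used here.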

Additional observations from a re-analysis of the deposited data

How the results depend on the processing

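Of 244 recomputed counts of subunits past a threshold, 42 moved by over 1.5 times, and most of the others were 0 before and after. Of 552 recomputed single values, 9 of called subunits, all of Gabra2 and Gabrb2 in LRRK2 KO, turned direction. Values that were not called turned direction too, as the report gives for single subunits, and with 2 libraries per group a left-out library can hardly move a value past the SD between them. The subtraction of the median of the same GC bin put 1 subunit past z in TE down for GS LRRK2 TG (with 5.07% of all transcripts), 1 in TE up for GS/DA LRRK2 TG (5.29%), left 1 in RNA-Seq down for LRRK2 KO (2.46%), and changed the footprinting change of Gabra2 in GS LRRK2 TG to 0.11. z from the median and MAD gave 1 subunit up (5.94%) and 1 down (12.2%) in TE for GS/DA LRRK2 TG, as did cutoffs of 1 and -1 (11.5% and 13.3%), and a fold threshold of 0.25 gave 1 up in footprinting (3.67%) and 1 up in RNA-Seq (14.2%). A fold threshold of 1 left 0 down in RNA-Seq for LRRK2 KO (0.126%).

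With 1 library left out at a time, the number of subunits past the threshold ran, for LRRK2 KO, from 0 to 4 in TE up (2.42% to 8.82% of all transcripts), 0 to 1 in TE down (2.85% to 8.69%), 0 to 4 in footprinting up (3.43% to 16.8%), 0 to 4 in footprinting down (2.99% to 17.4%), 0 to 1 in RNA-Seq up (6.25% to 16.2%) and 0 to 4 in RNA-Seq down (2.48% to 13.1%). For GS/DA LRRK2 TG it ran from 0 to 2 in TE up (0.0356% to 8.17%), 0 to 1 in TE down (0.201% to 9.01%), 0 to 1 in footprinting up (0.536% to 1.61%), 0 to 4 in RNA-Seq up (25% to 29.4%) and 1 to 4 in RNA-Seq down (12.2% to 31.8%). For GS LRRK2 TG it ran from 0 to 3 in TE up (4.69% to 9.24%), 1 to 3 in RNA-Seq up (17.5% to 22.3%) and 1 to 4 in RNA-Seq down (30.1% to 34.3%). Of the 9 that turned direction, without WT RNA-Seq library A, the TE difference of Gabrb2 was -0.21 (-0.20 by limma), its RNA-Seq change 0.29 (0.24 by limma), the RNA-Seq change of Gabra2 0.12 (0.12 by limma) and its limma TE difference -0.03. Without LRRK2 KO footprinting library B, the TE difference of Gabra2 was -0.14 (-0.17 by limma). The other ends of these ranges were 1.23 (1.16 by limma) for the TE difference of Gabra2 without LRRK2 KO footprinting library A, and, without WT RNA-Seq library B, -0.96 (-0.94 by limma) for its RNA-Seq change and -1.44 (-1.45 by limma) for that of Gabrb2. A left-out library leaves 1 library in its group, which limma assumes to vary like the others.

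No paired analysis was possible because replicate numbers could not be given to all footprinting libraries. This holds for footprinting and TE, but not for RNA-Seq of LRRK2 KO. The published depths did not settle the numbers of the WT footprinting libraries. For GS/DA LRRK2 TG, which non-TG control libraries its table holds is not stated. In RNA-Seq of LRRK2 KO, the published depths put the libraries in the same order as the matching below. For these libraries, that matching is therefore also a pairing by replicate number. The library difference of control and that of genotype had a Spearman correlation of 0.76 in footprinting and 0.69 in RNA-Seq in LRRK2 KO, and of 0.74 and -0.98 in GS/DA LRRK2 TG. Matching the libraries of control and genotype by the difference they share, a choice made from the data, gave limma calls for 5 transcripts in footprinting, 4 in RNA-Seq and 0 in TE in LRRK2 KO, with 0 of 6 subunits called, and 0 calls in GS/DA LRRK2 TG. At an unadjusted p under 0.05, the matched fit of LRRK2 KO counted 1 of 6 subunits, Gabrb2, in RNA-Seq (adjusted p 0.915), among 461 transcripts, and in TE (adjusted p 1), among 185. Fitting each assay alone with limma, an alternative chosen after seeing the data, called 0 transcripts in either comparison, with 152 at an unadjusted p under 0.05 in GS/DA LRRK2 TG footprinting and 16 in LRRK2 KO footprinting, and 0 of 6 subunits among them. Leave-one-out values were not run for non-TG control in the GS LRRK2 TG table, whose means could not be resolved. The cause of these changes was not tested. The fewest reads were 19 for Gabrb2 in GS LRRK2 TG RNA-Seq library A and, in footprinting, 41 for Gabra5 in WT library A.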
